A study of Homo sapiens with 18 samples.

Results

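The genes described here are the expressed autosomal genes whose annotated span is over 600 kb, 102 of the 62703 genes in the count tables. They were chosen by a rule on 2 values, a span of more than 600 kb from the first to the last annotated exon on hg38 and a mean of at least 1 CPM (counts scaled to the library total) over all 18 libraries. Of the 278 autosomal genes over 600 kb, 168 lay below 1 CPM. ZNF804A, GPC6, GMDS, PTPRG, MAGI1, DCC, MYRIP, EXOC4, EXOC6B and RAD51B were left out by name because earlier results of these data had shown them changing strongly, and 8 of these 10 would otherwise have met the rule. Counts and medians over the list are therefore those of a list from which known responders had been removed. DNM3 (600.6 kb) was just inside the span and SNX29 (597.6 kb) just outside it, while CLSTN2 (1.02 CPM) was just inside the level and THSD4 (0.992 CPM) just outside it.

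The study asked which genes change with NEAT1, the long non-coding RNA on which nuclear paraspeckles are built, in human multiple myeloma (MM) cell lines. Libraries of total RNA were sequenced from the human myeloma cell lines (HMCLs) labelled AMO1, H929 and LP1, each a single established line of malignant plasma cells bought from a cell bank. Cells of each line had taken up, without a transfection reagent and for 48 h, a locked nucleic acid gapmeR against NEAT1 (label gN1E) or a scrambled gapmeR (label SCR), and each of these 6 groups holds 3 libraries. A gapmeR is a short modified DNA strand on whose pairing RNase H cleaves the matched transcript. No untreated culture was analysed here, and nothing in the sources used here says whether replicates were separate cultures, so that the p-values measure the spread between these libraries only.

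A gene of this size holds its exons in a small part of its span. RNA polymerase II needs many hours to cross such a gene, and its introns are spliced out one after another while transcription goes on. Very long genes are rich in neuronal adhesion molecules and synaptic scaffolds, and several lie at common fragile sites, where replication in late S phase leaves breaks and deletions that are frequent in cancer. A few of them, such as RUNX1, RORA and FOXP1, are regulators in blood cells, while many others have no known role in plasma cells.

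Library totals ran from 28061606 to 69937229 counts. In AMO1 the gN1E libraries were the shallower ones, with 28061606 to 49784737 counts against 53227560 to 66142827 for SCR. Each line had all 10 plasma cell markers at 1 CPM or more, their summed level lying between 11150 and 23330 CPM. At most 1 of 6 monocyte and 1 of 6 stromal or epithelial markers reached 1 CPM in any group, with sums of at most 8.70 and 3.27 CPM. Of the 6 T or NK cell markers 2 or 3 reached 1 CPM, with sums of 10.4 to 31.3 CPM and CD3D and CD2 under 1 CPM throughout. Some of these sums differed between the labels without overlap. The T or NK cell sum in AMO1 was 25.2 to 28.5 CPM in gN1E and 29.7 to 31.3 in SCR, and the monocyte sum in LP1 was 3.41 to 5.85 and 6.44 to 8.70. The plasma cell sum was 21480 to 23330 CPM in gN1E and 20490 to 21390 in SCR of H929, and 11500 to 12160 and 11150 to 11410 in LP1. The part of these differences in any result was not tested.

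NEAT1 went against the labels in every line. It was at 536 ± 41.2 TMM-scaled CPM in the AMO1 libraries labelled gN1E and at 85.1 ± 8.42 in those labelled SCR (SD, n = 3 each), or 2.66 on the log2 scale. In H929 it was at 542 ± 53.2 against 81.2 ± 4.64 (log2 fold change 2.74) and in LP1 at 663 ± 93.7 against 151 ± 26.5 (2.14). The sample names inside the deposited tables also exchange gN1E with SCR, and H929 with LP1, against the sample labels. Groups are called here by their labels, and every difference is given as libraries labelled gN1E over libraries labelled SCR, so that a positive value goes with high NEAT1.

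The 102 genes had spans of 600.6 to 2299 kb with a median of 784.5 kb, against 26.4 kb for all autosomal genes of at least 1 CPM. PTPRD, DLG2, CSMD1 and MACROD2 were the longest. Exons covered 0.441% to 8.20% of the span (median 1.28%), and only reads on exons were counted, so the values below say nothing of introns. By biotype 86 were protein coding, 15 long non-coding RNAs and 1 a transcribed pseudogene. The list took 0.235% to 0.342% of all counts in a library. In 84 of the 102 no exonic base was shared with another annotated gene of the same strand, and the share was above 10% in ZBTB20 (43.02%), CCSER1 (14.4%) and EPHA6 (10.98%), whose shared reads the counting leaves out.

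Most of the changes that passed the test were rises with NEAT1. In AMO1, 92 of the 102 genes had at least 10 reads in 1 of the 6 libraries and were tested, and 19 of the 92 (20.7%) were higher in gN1E at an adjusted p under 0.05 (edgeR quasi-likelihood test with Benjamini-Hochberg adjustment over all 22933 genes tested), where 1.64% of all tested genes were. None of the 92 was lower, where 0.419% of all tested genes were, 1 was lower at an unadjusted p under 0.05, and limma-voom and DESeq2 also called 0. The AMO1 replicate letters were taken to pair the libraries, because same-lettered libraries deviated together, though the labels do not say what the letters mark. With the replicate letter as a block 25 were higher and 1, SHANK2, was lower, where 3.38% and 2.69% of all tested genes were. The 6 rises gained with the block were LINC01036, SMYD3, PTPRM, DLG2, PLCL1 and NBEA (adjusted p 0.011 to 0.0476, edgeR). Calls named from here on are those without the block, unless it is mentioned. In H929, 31 of 99 (31.3%) were higher, where 3.7% of all tested genes were, and 2 were lower, where 1.77% were. In LP1, 6 of 94 (6.38%) were higher, where 0.656% of all tested genes were, and 3 were lower, where 0.777% were. Of the autosomal genes with a mean of at least 1 CPM, the level the members had to reach, 2.41% were higher in AMO1, 5.47% in H929 and 0.974% in LP1, and 0.616%, 2.51% and 1.15% were lower, so that the 2 of 99 lower in H929 (2.02%) were not above that share. The LP1 count rested on single libraries, being 1 without SCR A, 1 without SCR B, 2 without gN1E D and 10 without SCR D.

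The median log2 fold change of the tested members was 0.15 in AMO1, 0.16 in H929 and 0.096 in LP1, where that of all tested genes was -0.016, -0.0096 and -0.0012. More members lay above 0 than below it, 62 against 30 in AMO1, 75 against 24 in H929 and 69 against 25 in LP1. All 3 gN1E libraries lay above all 3 SCR libraries in 32 of the 92 members in AMO1 (34.8%), in 50 of 99 in H929 (50.5%) and in 23 of 94 in LP1 (24.5%), where 9.48%, 11.3% and 9.14% of all tested genes did. Among members with a mean of at least 5 CPM in the line, a cut-off added after the data had been seen, 17 of 49 rose in AMO1, 22 of 54 in H929 and 4 of 58 in LP1, where 3.05%, 6.94% and 1.22% of all autosomal genes at that level did. At that level 0 members fell in AMO1, 0 in H929 and 3 in LP1, where 0.686%, 2.83% and 1.40% of those genes did.

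**Figure D1:**
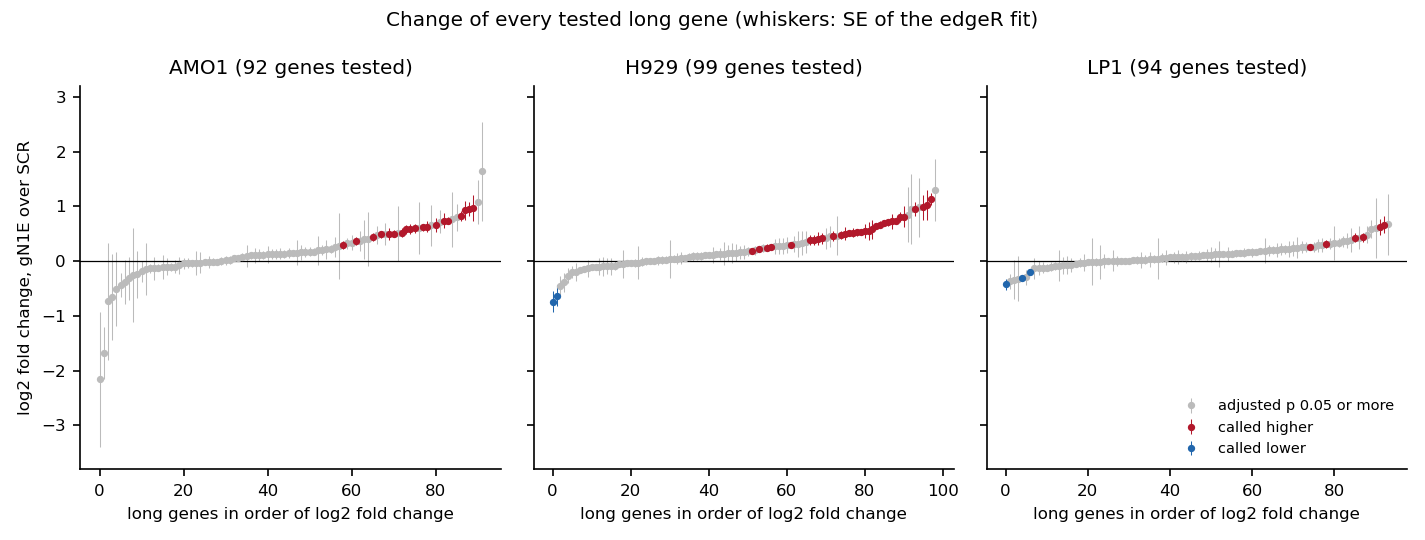
Log2 fold change (gN1E over SCR) of every tested long gene in each line, in rising order along the x axis, with the SE of the edgeR fit as whiskers and the genes past an adjusted p of 0.05 in red (higher) or blue (lower). The 19, 31 and 6 genes called higher lie among the positive values, mixed with genes of like change that were not called, and the widest whiskers belong to genes with few reads.

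In all, 33 members rose in at least 1 line, 19 in at least 2, and LRBA, BCAS3, WWOX and FHIT in all 3. Of the 26436 genes tested in any line, 3.73% rose in at least 1, 1.33% in at least 2 and 0.235% in all 3. A further 5 fell in 1 line each, none of them called higher elsewhere, and 64 passed in no line. These falls were 2 in H929 and 3 in LP1, where 1.77% and 0.777% of all tested genes fell. AMO1 and H929 shared 18 of their calls, which is 18 of 19 in AMO1 and 18 of 31 in H929, and LP1 shared 4 with AMO1 and 5 with H929. Of all genes tested in any line, 1.22% rose in both AMO1 and H929, 0.238% in AMO1 and LP1, and 0.337% in H929 and LP1. With the replicate letter as a block in AMO1, 35 members rose in at least 1 line, 23 in at least 2 and 4 in all 3, where 4.78%, 1.76% and 0.265% of all genes did. With that block 6 fell, among them SHANK2 in AMO1, where 2.69% of all tested genes fell, and 61 passed in no line. AMO1 and H929 then shared 22 calls, of 25 in AMO1 and 31 in H929, where 1.68% of all genes rose in both.

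LRBA (chr4:150264435-151015727, minus strand) encodes a BEACH-domain protein that keeps CTLA4 out of lysosomes and is lost in an immune deficiency. It stood at 178, 199 and 183 TMM-scaled CPM in the AMO1 gN1E libraries A, C and D and at 110.5, 116 and 108 in the SCR libraries, a log2 fold change of 0.74 ± 0.057 (SE; adjusted p = 4.25e-08, edgeR). In H929 it was at 158, 159 and 163 in gN1E A, B and C against 96.2, 96.2 and 95.1 in SCR, a change of 0.74 ± 0.046 (SE; adjusted p = 2.54e-12, edgeR). LP1 had 122, 118 and 118 in gN1E A, B and D against 94.7, 99.7 and 104 in SCR, and 0.26 ± 0.049 (SE; adjusted p = 0.00878, edgeR). In each line every gN1E library lay above every SCR library, with the smallest gap in LP1.

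BCAS3 (chr17:60677453-61392838, plus strand), a phosphoinositide-binding factor of autophagy and cell migration, was at 68.6, 69.6 and 70.1 CPM in gN1E and 48.5, 50.6 and 48.1 in SCR of AMO1, a log2 fold change of 0.50 ± 0.06 (SE; adjusted p = 1.9e-05, edgeR). Its H929 values were 41.7, 41.2 and 44.8 against 28.7, 26.5 and 26.5, or 0.64 ± 0.059 (SE; adjusted p = 8.51e-09, edgeR). In LP1 they were 13.8, 14.2 and 15.7 against 10.8, 10.1 and 11.5, or 0.43 ± 0.083 (SE; adjusted p = 0.00916, edgeR). The groups did not overlap in any line, and LP1 held the lowest levels.

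WWOX and FHIT span the fragile sites FRA16D and FRA3B and are often deleted in tumours. WWOX (chr16:78099400-79212667, plus strand), an oxidoreductase with WW domains, was at 24.02, 24.3 and 24.4 CPM in gN1E and 15.4, 15.9 and 16.7 in SCR of AMO1, a log2 fold change of 0.60 ± 0.078 (SE; adjusted p = 5.74e-05, edgeR). In H929 it was at 23.9, 21.9 and 22.6 against 13.7, 13.8 and 14.4, or 0.71 ± 0.069 (SE; adjusted p = 2.61e-08, edgeR). LP1 gave 11.8, 11.6 and 13.1 against 8.8, 8.89 and 9.41, or 0.43 ± 0.084 (SE; adjusted p = 0.0107, edgeR). Again no SCR library reached a gN1E library of its line.

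FHIT (chr3:59747277-61251459, minus strand), a diadenosine triphosphate hydrolase, was at 7.08, 7.92 and 7.48 CPM in gN1E and 3.81, 4.13 and 3.61 in SCR of AMO1, 0.95 ± 0.12 (SE; adjusted p = 5.56e-05, edgeR) on the log2 scale. In H929 it was at 9.07, 8.57 and 8.48 against 4.19, 3.76 and 3.89, or 1.14 ± 0.11 (SE; adjusted p = 1.1e-08, edgeR). LP1 had 4.75, 4.76 and 6.55 against 3.03, 3.4 and 4.03, or 0.62 ± 0.14 (SE; adjusted p = 0.0287, edgeR). The 3 gN1E libraries were above the 3 SCR libraries throughout, and in LP1 the highest value was that of gN1E D.

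**Figure D2:**
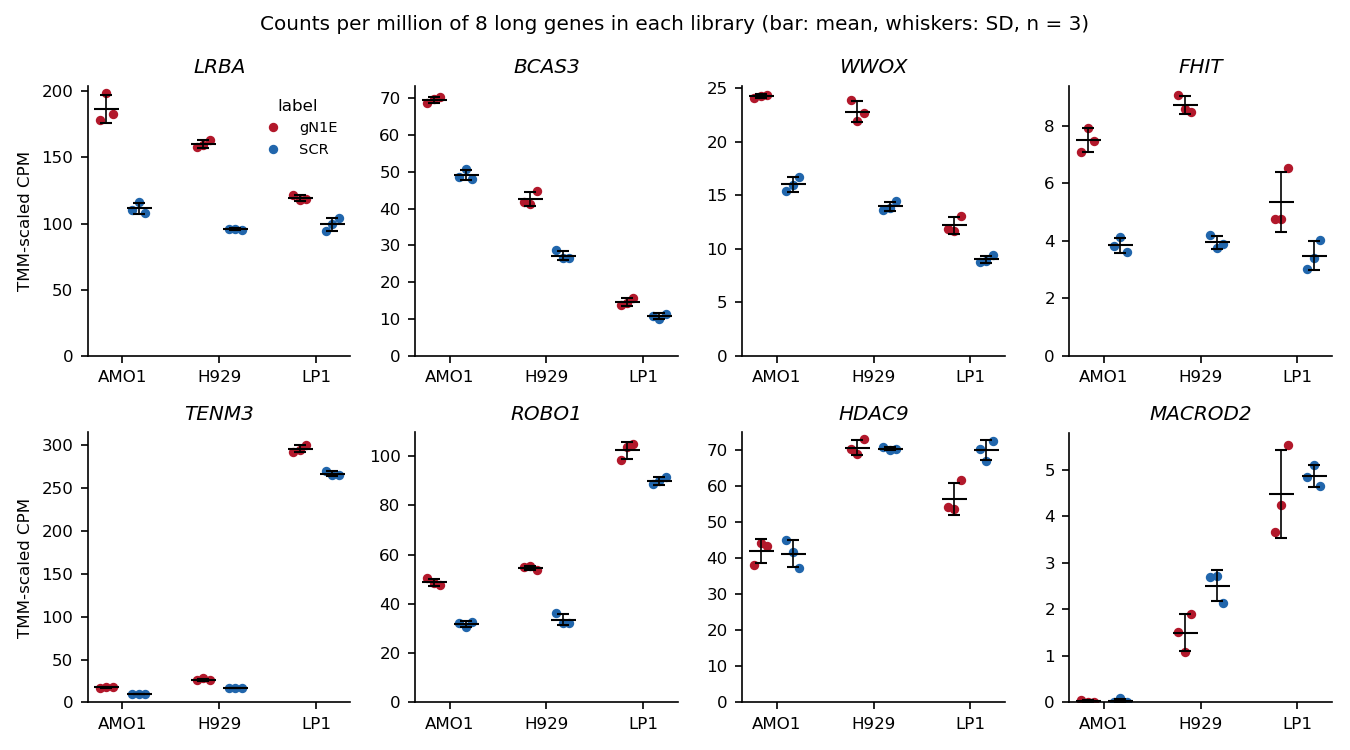
TMM-scaled CPM of 8 long genes in each library (points), with the mean and SD of the 3 libraries of a group, for gN1E (red) and SCR (blue) in the 3 lines. LRBA, BCAS3, WWOX and FHIT separate in all 3 lines, TENM3 and ROBO1 lie at their highest levels in LP1, HDAC9 is lower in gN1E of LP1 and MACROD2 is lower in gN1E of H929.

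ROBO1 and TENM3 are cell surface receptors best known from axon guidance and synaptic matching. ROBO1 (chr3:78597239-79767998, minus strand), the receptor for SLIT ligands, was at 50.4, 48.6 and 47.5 CPM in gN1E and 32.2, 30.5 and 32.8 in SCR of AMO1, a log2 fold change of 0.62 ± 0.066 (SE; adjusted p = 4.24e-06, edgeR). Its H929 values were 55.1, 55.3 and 53.9 against 36.3, 32.2 and 32.3, or 0.70 ± 0.058 (SE; adjusted p = 8.53e-10, edgeR). In LP1 it was at 98.4, 104 and 105 against 88.5, 89.9 and 91.5, with 0.19 ± 0.048 (SE; adjusted p = 0.0553, edgeR), which missed the threshold although the groups did not overlap.

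TENM3 (chr4:182143987-182803024, plus strand), a teneurin, was at 16.9, 18.1 and 18.1 CPM in gN1E and 10.3, 10.02 and 9.66 in SCR of AMO1, a log2 fold change of 0.82 ± 0.088 (SE; adjusted p = 4.88e-06, edgeR). In H929 it was at 26.04, 27.98 and 25.6 against 16.8, 16.9 and 16.6, or 0.66 ± 0.065 (SE; adjusted p = 3.07e-08, edgeR). LP1 held far more of it, 292, 295 and 300.2 against 270.3, 265 and 265, with 0.15 ± 0.044 (SE; adjusted p = 0.11, edgeR). The groups were apart in all 3 lines, and the change passed in AMO1 and H929.

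ZFHX3 (chr16:72782885-73891871, minus strand), a large zinc finger and homeobox transcription factor, was at 45.6, 39.96 and 42.2 CPM in gN1E and 29.99, 30.6 and 30.8 in SCR of AMO1, a log2 fold change of 0.49 ± 0.069 (SE; adjusted p = 0.000183, edgeR). In H929 it was at 41.8, 41.4 and 41.5 against 29.4, 29.9 and 27.7, or 0.52 ± 0.057 (SE; adjusted p = 2.32e-07, edgeR). BBS9 (chr7:33109557-33877180, plus strand), a subunit of the BBSome that carries membrane proteins to cilia, was at 11.5, 12.1 and 12.3 against 7.4, 6.11 and 7.14 in H929, or 0.80 ± 0.093 (SE; adjusted p = 6.39e-07, edgeR). In each of these comparisons the lowest gN1E library was above the highest SCR library.

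CDH4 and CLSTN2 rose in LP1 without a call in AMO1, where both were too low to be tested. CDH4, R-cadherin, was at 23.96, 25.9 and 25.8 CPM in gN1E and 20.4, 21.6 and 18.9 in SCR of LP1, a log2 fold change of 0.31 ± 0.068 (SE; adjusted p = 0.0203, edgeR). CLSTN2, a calsyntenin of synaptic membranes, was at 2.74, 3.11 and 2.44 against 1.91, 1.6 and 1.71 in LP1, or 0.66 ± 0.16 (SE; adjusted p = 0.0344, edgeR). Neither pair of groups overlapped. In H929, where CLSTN2 averaged 0.795 CPM, it rose too, by 1.02 ± 0.28 (SE; adjusted p = 0.0263, edgeR). The 6 rises of LP1 each depended on some library. The highest adjusted p (edgeR) with 1 library left out was 0.0771 for LRBA (lost without SCR A or SCR B), 0.0698 for BCAS3 (SCR B or gN1E D), 0.0669 for WWOX and 0.165 for FHIT (both SCR A, SCR B or gN1E D). It was 0.103 for CDH4 (SCR A, gN1E B or gN1E D) and 0.193 for CLSTN2 (SCR A, SCR B, gN1E A or gN1E B).

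Some rises in AMO1 and H929 also rested on single libraries. In AMO1 the highest adjusted p (edgeR) with 1 library left out was 0.15 for ERC2 (lost without any but gN1E A), 0.19 for SUMF1 (any but SCR C) and 0.0877 for PLCB1 (SCR D, gN1E C or gN1E D). LPP reached 0.0845 (gN1E C or gN1E D) and MDGA2 0.0637 (SCR D). In H929, NBEA lost its call without each of the 6 libraries in turn (adjusted p 0.0519 to 0.123, edgeR). The highest adjusted p (edgeR) there was 0.205 for ERC2 (any but SCR A), 0.187 for CLSTN2 (any but gN1E C), and 0.193 for GRIP1 and 0.216 for PDE4D (any but gN1E B). It was 0.155 for SUMF1 (SCR A, SCR B, gN1E B or gN1E C), 0.0743 for AGAP1 and 0.0564 for CSMD1 (both gN1E B). Of all calls, 14 of 19 in AMO1 and 14 of 33 in H929 held in each of the other fits tried, and 0 of 9 in LP1 did.

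The 5 members that fell did so in H929 or LP1. MACROD2 (chr20:13995369-16053197, plus strand), which removes mono-ADP-ribose from proteins and is frequently deleted in tumours, was at 1.52, 1.09 and 1.89 CPM in gN1E and 2.69, 2.72 and 2.13 in SCR of H929, a log2 fold change of -0.74 ± 0.19 (SE; adjusted p = 0.0163, edgeR). OFCC1, a transcribed pseudogene, was at 1.34, 1.38 and 1.07 against 1.73, 2.04 and 2.13 in H929, or -0.63 ± 0.19 (SE; adjusted p = 0.0487, edgeR). HDAC9 (chr7:18086949-19002416, plus strand), a class IIa histone deacetylase, was at 54.1, 53.7 and 61.5 against 70.2, 66.9 and 72.4 in LP1, or -0.31 ± 0.058 (SE; adjusted p = 0.00823, edgeR). All 3 of these pairs of groups were apart.

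ATP8A2, a phospholipid flippase, was at 5.53, 5.9 and 6.12 CPM in gN1E and 8.04, 7.66 and 7.81 in SCR of LP1, a log2 fold change of -0.42 ± 0.095 (SE; adjusted p = 0.0255, edgeR). PALM2AKAP2, a locus that joins a paralemmin to an anchor for protein kinase A, was at 530.4, 565 and 567 against 616, 636 and 645 in LP1, or -0.19 ± 0.047 (SE; adjusted p = 0.0457, edgeR). The groups did not overlap for either gene. Single libraries decided these falls. With 1 library left out at a time the adjusted p (edgeR) reached 0.14 for MACROD2 (lost without SCR A or gN1E B) and 0.175 for OFCC1 (lost without each of the 6 in turn). It reached 0.0591 for HDAC9 (lost without gN1E A or gN1E B), 0.127 for ATP8A2 (without SCR A, SCR B, gN1E A or gN1E B) and 0.234 for PALM2AKAP2 (without any but SCR D). The sign stayed negative in each of these fits.

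By role, the 8 enzymes of metabolism and genome care had 6 of 7 tested higher in AMO1 (median log2 fold change 0.58), 6 higher and 1 lower of 8 in H929 (0.53) and 2 of 8 higher in LP1 (0.18). Of all tested genes 1.64%, 3.7% and 0.656% were higher, and of the whole list 20.7%, 31.3% and 6.38%, against which this and the other groups can be read. The groups were written with results of these data in view, and the difference between them was not tested. FHIT and WWOX, described above, rose in all 3 lines. IMMP2L, a subunit of the inner mitochondrial membrane peptidase, had log2 fold changes of 0.93 in AMO1, 0.95 in H929 and 0.48 in LP1, past the threshold in AMO1 and H929. CDKAL1, a methylthiotransferase that modifies lysine tRNA, had 0.44 in AMO1, 0.53 in H929 and 0.14 in LP1, past the threshold in AMO1 and H929. SUMF1, which makes the formylglycine that activates sulfatases, had 0.30 in AMO1, 0.24 in H929 and 0.028 in LP1, past the threshold in AMO1 and H929. DPYD, the first enzyme of pyrimidine breakdown, had 0.13 in AMO1, 0.097 in H929 and 0.13 in LP1. MACROD2 had -0.74 in H929 and -0.13 in LP1, past the threshold in H929, and it was not tested in AMO1. Among the 8, DPYD passed in no line.

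Of the 25 members that act on the cytoskeleton or on membrane traffic, 5 were higher in AMO1 (median 0.11), 9 were higher in H929 (0.13), and 2 were higher and 2 lower in LP1 (0.059). Vesicle and lysosome factors come first. LRBA and BCAS3, described above, rose in all 3 lines. NBEA, the neuronal relative of LRBA in the BEACH family, had log2 fold changes of 0.17 in AMO1, 0.18 in H929 and 0.02 in LP1, past the threshold in H929, and with the replicate letter as a block also in AMO1. TBC1D5, a Rab7 GTPase-activating protein of the retromer, had 0.15 in AMO1, 0.23 in H929 and 0.0092 in LP1, past the threshold in H929. VPS13B, a lipid transfer protein of the Golgi, had 0.14 in AMO1, 0.11 in H929 and 0.0023 in LP1. TRAPPC9, a subunit of the TRAPP II tethering complex, had 0.11 in AMO1, 0.13 in H929 and 0.075 in LP1. RABGAP1L, a second Rab GTPase-activating protein, had -0.038 in AMO1, -0.15 in H929 and -0.018 in LP1. UNC13C, a priming factor of synaptic vesicles, had -0.12 in AMO1, -0.17 in H929 and 0.044 in LP1 (mean 0.377 CPM). ERC2, a scaffold of the presynaptic active zone, had 0.97 in AMO1, 0.58 in H929 and 0.37 in LP1, past the threshold in AMO1 and H929. DNM3, a dynamin, had 0.16 in AMO1, 0.16 in H929 and 0.021 in LP1. ATP8A2 had -0.14 in AMO1 (mean 0.334 CPM), 0.85 in H929 (mean 0.246 CPM) and -0.42 in LP1, past the threshold in LP1. In this subset the calls were LRBA, NBEA, BCAS3, TBC1D5 and ERC2 upward and ATP8A2 downward.

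Factors of actin, microtubules and small GTPases follow. LPP, a zyxin relative at focal adhesions that partners KMT2A in leukaemia fusions, had log2 fold changes of 0.50 in AMO1, 0.46 in H929 and 0.31 in LP1, past the threshold in AMO1 and H929. KAZN, a desmosome-associated protein, had 1.08 in AMO1 (mean 0.546 CPM), 0.98 in H929 and -0.088 in LP1, past the threshold in H929. AGAP1, an Arf GTPase-activating protein, had 2 reads in the gN1E and 17 in the SCR libraries of AMO1, 0.38 in H929 and 0.16 in LP1, past the threshold in H929. ARHGAP15, a Rac GTPase-activating protein of blood cells, had 0.077 in AMO1 and 0.024 in H929, and it was not tested in LP1. DOCK3, a Rac activator of neurons, had 0.11 in AMO1, 0.088 in H929 and 0.16 in LP1. NAV2, a microtubule-binding neuron navigator, had -0.043 in AMO1, 0.24 in H929 and 0.15 in LP1. TTC28, a tetratricopeptide protein of the midbody, had -0.021 in AMO1, 0.066 in H929 and 0.20 in LP1. PALM2AKAP2 had 0.057 in AMO1, -0.052 in H929 and -0.19 in LP1, past the threshold in LP1. KIAA1217, the counterpart of the mouse gene Skt, had -0.012 in AMO1, -0.036 in H929 and 0.11 in LP1. CCSER1, a coiled-coil protein at the fragile site FRA4F, had 0.14 in AMO1, 0.08 in H929 and -0.12 in LP1. ANKFN1, an ankyrin repeat protein, had 0.66 in AMO1 (mean 0.532 CPM), 0.04 in H929 (mean 0.435 CPM) and -0.08 in LP1. Cilium factors are the remainder of the group. BBS9 had 0.74 in AMO1, 0.80 in H929 and 0.37 in LP1, past the threshold in AMO1 and H929. WDPCP, a planar polarity effector of ciliogenesis, had -0.0033 in AMO1, 0.094 in H929 and 0.20 in LP1. SPAG16, a component of the sperm axoneme, had 0.11 in AMO1, 0.05 in H929 and -0.073 in LP1. Of these 14 genes, LPP, KAZN, AGAP1 and BBS9 rose in at least 1 line.

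Among 26 members for adhesion, polarity and the synapse, 3 of 22 tested rose in AMO1 (median 0.23), 8 of 26 in H929 (0.17) and 2 of 23 in LP1 (0.15). Guidance receptors and adhesion molecules are given first. TENM3 and ROBO1, described above, rose in AMO1 and H929. MDGA2, an immunoglobulin-domain inhibitor of neuroligins, had log2 fold changes of 0.66 in AMO1, 0.73 in H929 and 0.43 in LP1, past the threshold in AMO1 and H929. CSMD1, a complement-control membrane protein, had -0.012 in AMO1, 0.50 in H929 and 0.24 in LP1, past the threshold in H929. CLSTN2 had 1.02 in H929 (mean 0.795 CPM) and 0.66 in LP1, past the threshold in H929 and LP1, and it was not tested in AMO1. CDH4 had 0.46 in H929 (mean 0.382 CPM) and 0.31 in LP1, past the threshold in LP1, and it was not tested in AMO1. CDH18, a type II cadherin, had 0.13 in AMO1 and 0.18 in H929, and it was not tested in LP1. PCDH9, a protocadherin, had 0.16 in AMO1, 0.13 in H929 and 0.22 in LP1. PCDH15, the protocadherin of inner ear tip links, had 0.76 in AMO1 (mean 0.299 CPM) and -0.26 in H929, and it was not tested in LP1. CTNNA2, the neuronal alpha-catenin, had -0.10 in AMO1, -0.0071 in H929 and -0.0097 in LP1 (mean 0.788 CPM). CNTN5, a contactin, had -0.32 in AMO1 (mean 0.457 CPM), 0.28 in H929 and 0.0032 in LP1. ASTN2, an astrotactin of neuronal migration, had 0.21 in AMO1, 0.20 in H929 and 0.0037 in LP1. ATRNL1, an attractin relative, had -0.25 in AMO1 (mean 0.149 CPM), -0.46 in H929 and -0.01 in LP1. Beyond TENM3, ROBO1 and MDGA2 no adhesion gene of this set passed in AMO1.

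The adhesion G protein-coupled receptors gave no call in any line. ADGRL2, a latrophilin, had log2 fold changes of -0.20 in H929 and 0.0043 in LP1, and it was not tested in AMO1. ADGRL3, a second latrophilin, had -0.10 in AMO1, 0.16 in H929 and 0.67 in LP1 (mean 0.218 CPM). ADGRB3, a brain angiogenesis inhibitor receptor, had 0.40 in AMO1 (mean 0.564 CPM), 0.14 in H929 and 0.19 in LP1. ADGRV1, the very large receptor of hair cells, had 0.37 in AMO1, -0.20 in H929 and -0.076 in LP1. Polarity and synaptic scaffolds follow. PARD3, the core scaffold of the apical polarity complex, had 0.28 in AMO1 (mean 0.177 CPM), 0.00067 in H929 and -0.055 in LP1. PARD3B, its paralog, had -0.51 in AMO1 (mean 0.147 CPM), -0.032 in H929 (mean 0.537 CPM) and 0.22 in LP1. DLG2, a membrane-associated guanylate kinase of the postsynaptic density, had 0.80 in AMO1, 0.81 in H929 and 0.59 in LP1, past the threshold in H929. SHANK2, a postsynaptic scaffold, had -1.68 in AMO1 (mean 0.295 CPM), 0.15 in H929 and 0.035 in LP1. GRIP1, a PDZ scaffold for AMPA receptors, had 9 reads in the gN1E and 25 in the SCR libraries of AMO1, 0.55 in H929 and 0.24 in LP1, past the threshold in H929. GPHN, gephyrin, which anchors glycine and GABA receptors and makes molybdenum cofactor, had 0.046 in H929 and 0.0098 in LP1, and it was not tested in AMO1. CACNA1C, the pore of an L-type calcium channel, had 0.51 in AMO1 (mean 0.272 CPM), 0.95 in H929 (mean 0.154 CPM) and -0.0032 in LP1. FGF12, an intracellular fibroblast growth factor relative that binds sodium channels, had 0.26 in AMO1, 0.15 in H929 and -0.012 in LP1 (mean 0.238 CPM). DLG2 and GRIP1 rose in H929, and without the block no other gene named in this paragraph passed in any line. With the replicate letter as a block DLG2 rose and SHANK2 fell in AMO1.

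In the signalling group of 13 members, 2 of 11 tested rose in AMO1 (median 0.22), and 3 of 11 in H929 (0.12), and the median in LP1 was 0.076. PDE4D, a cyclic AMP phosphodiesterase, had log2 fold changes of 0.58 in AMO1, 0.41 in H929 and 0.34 in LP1, past the threshold in AMO1 and H929. PLCB1, a phospholipase C that makes inositol trisphosphate, had 0.37 in AMO1, 0.30 in H929 and 0.071 in LP1, past the threshold in AMO1 and H929. PLCL1, a phospholipase C relative without catalytic activity, had 0.72 in AMO1, 0.12 in H929 and -0.30 in LP1. PTPRM, a receptor tyrosine phosphatase, had 0.22 in AMO1, 0.26 in H929 and 0.17 in LP1, past the threshold in H929. PTPRD, a receptor phosphatase at a site often deleted in tumours, had 16 reads in the gN1E and 9 in the SCR libraries of AMO1, -0.096 in H929 and 0.11 in LP1. PTPRN2, a phosphatase relative of dense-core vesicles, had 0.076 in LP1, and it was not tested in AMO1 or H929. EPHA6, an ephrin receptor, had 0.41 in AMO1 (mean 0.254 CPM), 0.15 in H929 and 0.20 in LP1. NRG3, a ligand of ERBB4, had 0.31 in H929 and 0.12 in LP1, and it was not tested in AMO1. FSTL5, a follistatin-like secreted protein, had 6 reads in the gN1E and 18 in the SCR libraries of AMO1 and -0.12 in LP1, and it was not tested in H929. RGS6, a regulator that switches off G proteins, had -0.04 in AMO1, -0.083 in H929 and 0.099 in LP1. RASGEF1B, a guanine nucleotide exchange factor, had -0.24 in AMO1 (mean 0.363 CPM), -0.39 in H929 and -0.086 in LP1 (mean 0.818 CPM). CDK14, a cyclin Y-dependent kinase of Wnt signalling, had 0.15 in AMO1, 0.0016 in H929 and -0.10 in LP1. ULK4, a kinase relative linked to cilia, had 0.17 in AMO1, 0.015 in H929 and 0.038 in LP1. PDE4D, PLCB1 and PTPRM carried all the calls of this group without the block. With the replicate letter as a block PLCL1 and PTPRM also rose in AMO1.

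Transcription and chromatin factors numbered 14, of which 3 of 13 tested rose in AMO1 (median 0.12), 4 of 14 rose in H929 (0.033), and 1 of 12 fell in LP1 (0.10). ZFHX3 had log2 fold changes of 0.49 in AMO1, 0.52 in H929 and 0.072 in LP1, past the threshold in AMO1 and H929. ZBTB20, a BTB zinc finger repressor found in plasma cells, had 0.52 in AMO1, 0.39 in H929 and 0.26 in LP1, past the threshold in AMO1 and H929, and 43.02% of its exonic bases are shared with another gene. SOX5, an SRY-box factor, had 0.63 in AMO1 and 0.98 in H929 (mean 0.288 CPM), past the threshold in AMO1, and it was not tested in LP1. SMYD3, a lysine methyltransferase, had 0.32 in AMO1, 0.48 in H929 and 0.091 in LP1, past the threshold in H929. With the replicate letter as a block it passed in AMO1 too. RALYL, an RNA-binding protein, had 0.41 in H929, past the threshold in H929, and it was not tested in AMO1 or LP1. HDAC9 had 0.021 in AMO1, 0.0065 in H929 and -0.31 in LP1, past the threshold in LP1. RUNX1, a master factor of blood development, had -0.10 in AMO1, 0.045 in H929 and 0.17 in LP1. RORA, a nuclear receptor of lymphoid cells, had -0.011 in AMO1, -0.10 in H929 and 0.29 in LP1. FOXP1, a forkhead repressor that is switched down as B cells become plasma cells, had 0.016 in AMO1, 0.021 in H929 and 0.12 in LP1. FOXP2, its relative, had -0.18 in AMO1, -0.097 in H929 and 0.26 in LP1. AUTS2, an activator within a Polycomb complex, had 0.12 in AMO1, -0.035 in H929 and -0.028 in LP1. CAMTA1, a calmodulin-binding activator, had 0.11 in AMO1, -0.032 in H929 and 0.069 in LP1. ZFPM2, a partner of GATA factors, had 0.61 in AMO1 (mean 0.294 CPM), 0.27 in H929 and 0.13 in LP1. NPAS3, a basic helix-loop-helix factor, had 0.19 in AMO1, -0.051 in H929 (mean 0.831 CPM) and -0.37 in LP1. RUNX1, RORA and FOXP1 passed in no line, while ZBTB20 rose in AMO1 and H929.

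The 16 non-coding members gave 1 rise and 1 fall, both in H929, with medians of -0.030 in AMO1, 0.29 in H929 and 0.079 in LP1. LINC02055 had log2 fold changes of 0.17 in AMO1, 0.52 in H929 and -0.32 in LP1 (mean 0.27 CPM), past the threshold in H929. OFCC1 had -0.13 in AMO1 and -0.63 in H929, past the threshold in H929, and it was not tested in LP1. DLEU1, a transcript of a region often deleted in myeloma and leukaemia, had 0.061 in AMO1, 0.11 in H929 and 0.063 in LP1. MIR99AHG, the host of a microRNA cluster, had -0.13 in AMO1, -0.11 in H929 and 0.33 in LP1 (mean 0.541 CPM). PCAT1, a transcript described in prostate cancer, had 0.22 in AMO1, 0.27 in H929 and 0.61 in LP1 (mean 0.167 CPM). LINC01036 had 0.48 in AMO1, 0.29 in H929 and 0.26 in LP1. LINC01414 had -0.076 in AMO1, -0.10 in H929 and 0.021 in LP1. None of these 5 passed the test, apart from LINC01036 in AMO1 with the replicate letter as a block. The 9 transcripts without a symbol are named by identifier, and none of them passed either. ENSG00000254186 had -0.39 in AMO1 (mean 0.432 CPM), 0.35 in H929 and 0.093 in LP1. ENSG00000258081 had -0.027 in AMO1, 0.41 in H929 and -0.13 in LP1. ENSG00000258526 had -0.11 in AMO1, -0.098 in H929 and -0.027 in LP1. Their mean levels over all libraries were 2.04 to 10.3 CPM. ENSG00000251600 had 1.30 in H929 (mean 0.189 CPM) and 0.29 in LP1, and it was not tested in AMO1. ENSG00000285280 had -0.44 in AMO1, -0.13 in H929 and 0.39 in LP1 (mean 0.99 CPM). ENSG00000237356 had 0.49 in AMO1, 0.45 in H929 and 0.12 in LP1 (mean 0.877 CPM). Their mean levels were 1.32 to 1.82 CPM. ENSG00000288714, which was read in LP1 alone, had 0.065 in LP1, and it was not tested in AMO1 or H929. ENSG00000263745 had -0.032 in AMO1, 0.33 in H929 and -0.34 in LP1 (mean 0.391 CPM). ENSG00000286481 had 0.093 in AMO1 and 0.32 in H929, and it was not tested in LP1.

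Members at common fragile sites, 17 in a list written with earlier results known, crossed these groups. Of them 5 of 16 tested rose in AMO1 (median 0.33), 10 of 17 rose and 1 fell in H929 (0.41), and 2 of 16 rose in LP1 (0.22), where 20.7%, 31.3% and 6.38% of all tested members rose. The difference from the other members was not tested. IMMP2L, WWOX, FHIT and PDE4D were among the AMO1 calls. NBEA, SMYD3, CSMD1 and DLG2 were among those added in H929, where MACROD2 fell. With the replicate letter as a block NBEA, SMYD3 and DLG2 were called higher in AMO1 too. RORA, DPYD, PARD3B, AUTS2, CCSER1 and PTPRD, also on the list, passed in no line.

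The sequences below show what some members share with NEAT1 itself. Every 11-base stretch of NEAT1 was scored by the mean AMO1 log2 fold change, less its trend with span, of the genes that carry it among 12795 genes outside the list. The mean was multiplied by the square root of the number of carriers and divided by the SD over all these genes, so a score grows with that number. The 5 stretches with the highest scores were carried by 228 to 499 of these genes. They lie side by side and make up 15 bases in the plus strand of NEAT1, from base 3078 to base 3092 of the gene at chr11:65425851-65425865 on hg38. The sequence of the gapmeR is not given in the sources used here. The first line is this segment, and the others are the transcribed strands of members with a run of it in capitals and 6 flanking bases in lower case on each side. They are shown because their runs are the longest among the members, or lie in an exon. PCAT1, with a run of 13 bases, is described without its sequence.
NEAT1 segment: TTTTGTGGTCACTGT
ERC2 (chr3:55686951-55686965, minus strand, intron, 15 bases): gctgggTTTTGTGGTCACTGTgctctc
FOXP1 (chr3:71302806-71302820, minus strand, intron, 15 bases): catggtTTTTGTGGTCACTGTgtaact
PTPRD (chr9:9465929-9465942, minus strand, intron, 14 bases): gcacaaTTTGTGGTCACTGTggctga
BBS9 (chr7:33195413-33195425, plus strand, intron, 13 bases): gggttaTTGTGGTCACTGTctccca
FHIT (chr3:59960168-59960180, minus strand, intron, 13 bases): gtattgTTTGTGGTCACTGaagtct
GRIP1 (chr12:66739051-66739063, minus strand, intron, 13 bases): ccggtgTTTGTGGTCACTGgagaat
KIAA1217 (chr10:24226818-24226830, plus strand, intron, 13 bases): tcacagTTGTGGTCACTGTgtaact
LRBA (chr4:150312141-150312152, minus strand, exon, 12 bases): gggtacTTTGTGGTCACTcaattc
WWOX (chr16:78115125-78115136, plus strand, exon, 12 bases): aagtggTTGTGGTCACTGgagcta

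ERC2 and FOXP1 hold all 15 bases in an intron, and PTPRD holds 14. FOXP1 and PTPRD passed in no line, and ERC2 passed in AMO1 and H929, where both calls rested on single libraries (above). Of the 5 members with 13 bases, BBS9 and FHIT rose in AMO1 and H929, FHIT also in LP1, and GRIP1 in H929. KIAA1217 had log2 fold changes of -0.012 in AMO1, -0.036 in H929 and 0.11 in LP1. PCAT1 had 0.22, 0.27 and 0.61, and neither of these passed in any line. LRBA and WWOX were the members with a 12-base run in an annotated exon, and WWOX has 2 further runs of that length in introns. A run of at least 12 bases was present in 27 of the 102 members (26.5%) and in 323 of 14791 other expressed genes (2.18%), which are far shorter.

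Among the 27 members with at least 12 bases the median change was 0.37 (log2) in AMO1, 0.31 in H929 and 0.12 in LP1. The other 75 members had 0.12, 0.14 and 0.075. In the same order, 8 of 24, 14 of 27 and 4 of 25 tested members with the run rose, against 11 of 68, 17 of 72 and 2 of 69 without it. Of all tested genes 1.64%, 3.7% and 0.656% rose, and of all tested members 20.7%, 31.3% and 6.38%. Members with a run were longer, with a median span of 862.7 kb against 780.1 kb. The difference of medians between members with and without the run was 0.253 in AMO1, 0.163 in H929 and 0.0483 in LP1, and with a minimum of 11 bases it was 0.0469, 0.0177 and -0.042. These are descriptions, since the segment was picked from fold changes of the same AMO1 libraries, and the part of the shared bases in the result was not tested. ROBO1, TENM3, ZFHX3 and BCAS3 rose with a longest run of 10 or 11 bases, although with the segment extended by 3 bases on each side, an alternative added after the data had been seen, TENM3 had a run of 13 and ROBO1 one of 12.

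**Figure D3:**
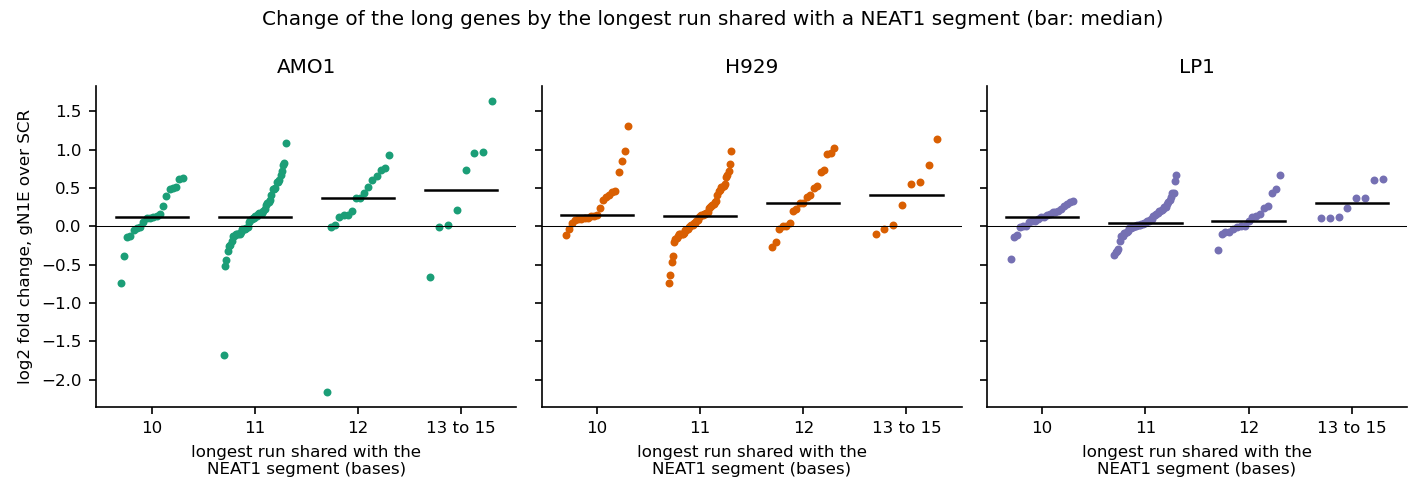
Log2 fold change (gN1E over SCR) of the tested long genes in each line, grouped on the x axis by the longest run of bases shared with the 15-base NEAT1 segment, with the median as a bar. Genes with 12 bases or more lie higher on the whole in AMO1 and H929. The classes are 10, 11, 12 and 13 to 15 bases, the last with 8 members. Each class holds genes near 0 in AMO1 and H929.

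The change with NEAT1 was compared between lines by the interaction of line and label in one edgeR fit of the 18 libraries. No member differed between AMO1 and H929 at an adjusted p under 0.05, where 0.0% of all tested genes did, although 11 of 102 had an unadjusted p under 0.05, and limma-voom also called 0. Between AMO1 and LP1, 6 members differed, where 0.741% of all tested genes did, and between H929 and LP1, 5 did, where 0.874% did. These last comparisons share the LP1 libraries. TENM3 rose more in AMO1 than in LP1 by 0.69 ± 0.073 (SE; adjusted p = 4.10e-07, edgeR) and more in H929 than in LP1 by 0.55 ± 0.070 (9.27e-06, edgeR). LRBA exceeded its LP1 change by 0.50 in AMO1 and 0.52 in H929, and ROBO1 by 0.45 and 0.55. CDKAL1 and ZFHX3 exceeded theirs by 0.43 and 0.48 in H929. PLCL1 differed by 1.03 and PALM2AKAP2 by 0.27 between AMO1 and LP1, both more positive in AMO1, and SHANK2 by -1.73, on a mean of 0.295 CPM in AMO1.

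Across the 46 members with at least 5 CPM in both lines, the log2 fold changes of AMO1 and H929 had a Pearson correlation of 0.93 and a Spearman correlation of 0.88, and 40 had the same sign. AMO1 and LP1 gave 0.54 and 0.43 over 36 members, of which 25 had the same sign. H929 and LP1 gave 0.64 and 0.61 over 42 members, of which 33 did. The lines share no libraries, but they share the gapmeRs and gene structures, and genes are not independent replicates. Without the limit on level the Pearson values were 0.39, 0.20 and 0.41 over 91, 85 and 91 members.

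**Figure D4:**
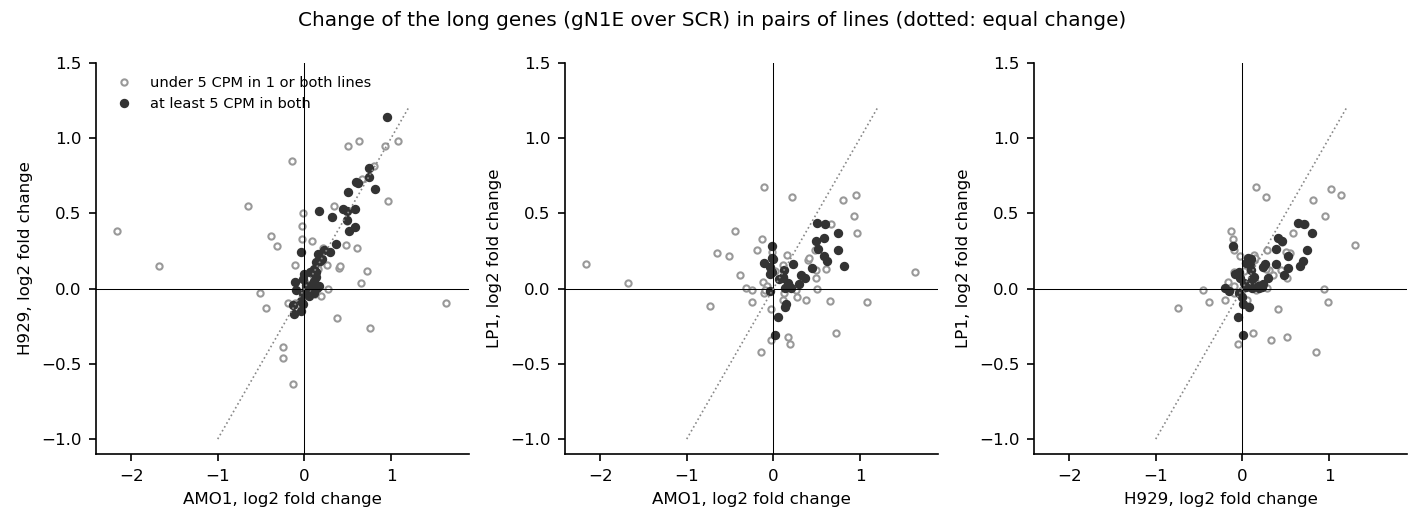
Log2 fold change (gN1E over SCR) of each long gene in one line against another, with filled points for genes of at least 5 CPM in both lines and open points for the rest. The filled points of AMO1 and H929 lie near the line of equal change, and most filled points of LP1 lie below it.

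Levels by line are given as a description only, since the mean level was part of the rule. At a mean of at least 1 CPM in the line there were 73 members in AMO1, 90 in H929 and 83 in LP1, and 56 in all 3. LP1 held the highest level of 45 members, AMO1 of 36 and H929 of 21. For 11 members over 90% of the summed CPM came from 1 line, among them RALYL from H929, SOX5 from AMO1 and CDH4, FSTL5, PTPRN2, KAZN, ATP8A2 and CACNA1C from LP1.

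The 6 members with the largest ratio between lines were AGAP1, GPHN, ADGRL2, ARHGAP15, PARD3 and CDH4, ranked after adding 0.1 CPM to both means. AGAP1 had a lowest, median and highest level over 6 libraries of 0.0, 0.0366 and 0.195 CPM in AMO1, 25.4, 35.2 and 41.1 in H929 and 68.2, 76.8 and 85.7 in LP1. GPHN had 0.0, 0.0 and 0.0177 in AMO1, 7.26, 8.01 and 8.35 in H929 and 41.2, 43.3 and 44.8 in LP1. Both were all but absent from AMO1, and no ranges overlapped. ADGRL2 had 0.0, 0.0 and 0.0188 in AMO1, 6.07, 6.58 and 8.07 in H929 and 38.2, 39.4 and 41.98 in LP1. PARD3 had 0.136, 0.165 and 0.249 in AMO1, 20.2, 20.8 and 21.6 in H929 and 67.6, 71.3 and 74.5 in LP1. CDH4 had 0.0, 0.0 and 0.0356 in AMO1, 0.259, 0.407 and 0.455 in H929 and 18.6, 22.9 and 26.3 in LP1. These 5 genes share the order LP1, H929, AMO1. ARHGAP15 had the reverse order, with 37.8, 41.5 and 43.5 in AMO1, 22.2, 24.03 and 26.4 in H929 and 0.0, 0.00715 and 0.0349 in LP1.

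Per kilobase of exon, which allows genes to be compared, KIAA1217 and PALM2AKAP2 led in AMO1 (22.7 and 19.8 CPM per kb) and in H929 (21.8 and 19.1), and in LP1 PALM2AKAP2, KIAA1217 and TENM3 did (32.3, 30.7 and 23.4). TENM3 was at 1.15 CPM per kb in AMO1 and 1.80 in H929. RORA, at 8.93 and 8.98 in AMO1 and H929, was at 0.551 in LP1.

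The list was last set against shorter autosomal genes of at least 1 CPM, the genes left out by name being left out here too. The share called higher rose from class to class of span in AMO1, from 0.524% of genes under 10 kb to 5.37% at 100 to 200 kb, 12.1% at 200 to 600 kb and 20.7% over 600 kb. In H929 it went from 2.00% through 10.2% and 19.8% to 31.3%, and in LP1 from 0.382% through 1.29% and 2.77% to 6.38%. The median log2 fold change went from -0.041 to 0.15 in AMO1, from -0.0065 to 0.16 in H929 and from -0.0064 to 0.096 in LP1. When the smooth trend of each library with span was removed, the medians over 600 kb were -0.022, 0.012 and 0.019, and 15 members rose and 3 fell in AMO1, where 1.33% and 0.497% of all tested genes did under that setting. In H929 15 rose and 11 fell, where 3.23% and 1.97% of all tested genes did, and in LP1 3 rose and 3 fell, where 0.548% and 0.76% did. BCAS3, FHIT, WWOX, LRBA, TENM3 and ROBO1 kept their calls in AMO1 and H929 under that setting. In LP1, BCAS3, LRBA and WWOX kept theirs and FHIT, CDH4 and CLSTN2 lost theirs, and with the replicate letter as a block as well all 6 rises of LP1 were lost. In AMO1, whose letters were taken to pair the libraries, 17 members rose and 8 fell with trend removal and block together. The share of all genes under that last setting is not given here.

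**Figure D5:**
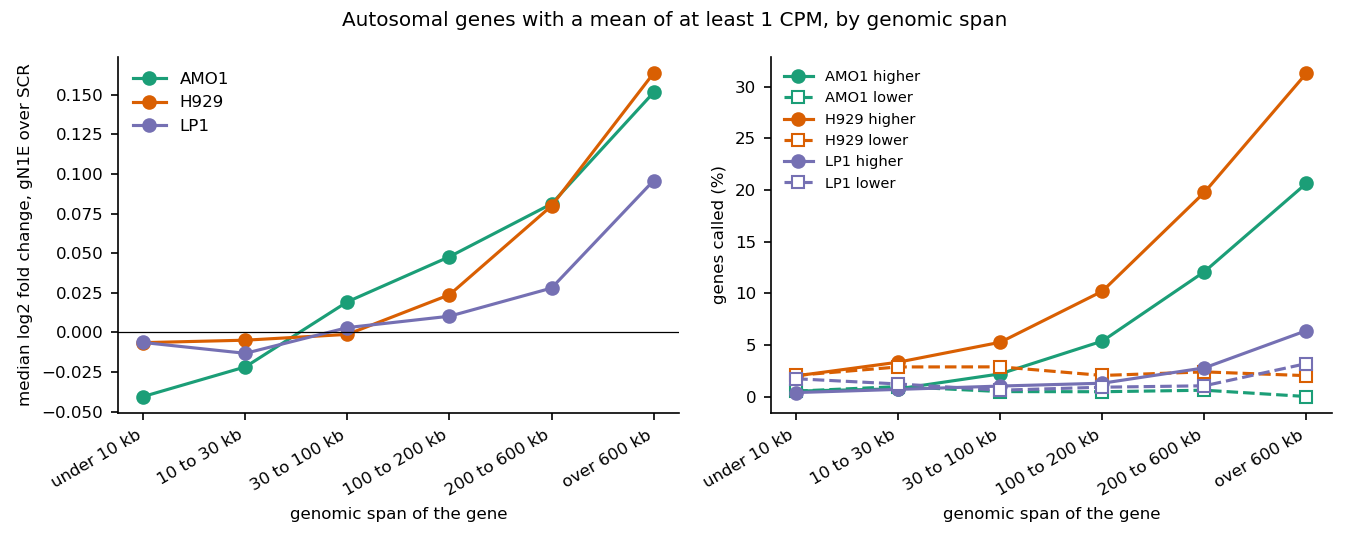
Median log2 fold change (gN1E over SCR, left) and percentage of genes called higher (filled) or lower (open, right) for autosomal genes of at least 1 CPM in 6 classes of genomic span, in the 3 lines. The percentage called higher is largest over 600 kb in each line (20.7%, 31.3% and 6.38%). In LP1 the percentage called lower is largest there too (3.19%).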

How the data were processed

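Libraries were prepared with a stranded total RNA kit and sequenced as paired reads. Per the labels and the study's methods, the authors aligned reads with STAR 2.7.10a to hg38 and counted exonic fragments per gene, on the reverse strand, with featureCounts 1.6.4 and GENCODE annotation, and the deposited values are raw counts per gene. Total counts per library ran from 28061606 to 69937229.

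Spans were read from the exon coordinates in the tables. Members and lists were chosen with earlier results of these data known. Apart from 2 members that enter the counts and are not reported by name here, every member is named with its log2 fold change in each line where it was tested (for 4 members of few reads in AMO1, with the reads instead), and values of each library are given for the up to 8 members higher and 8 lower per line with the smallest adjusted p and, by line, for the 6 with the largest ratio of levels. Within each line, genes with at least 10 reads in 1 of 6 libraries were TMM-scaled and tested with edgeR 4.0.16 (robust quasi-likelihood, Benjamini-Hochberg over all genes tested, threshold 0.05). The fits were first tested on simulated counts, in which only genes with many reads were changed, and by more than the members' medians. That check does not bear on small changes or on genes with few reads. limma 3.58.1 (voom, the study's pipeline), DESeq2 1.42.0 and other scalings, filters, spans and levels were alternatives. Same-lettered libraries deviated together in AMO1 (correlations 0.372, 0.351 and 0.190), not in H929 (-0.142, -0.0781 and -0.212) or LP1 (0.311, -0.0834 and -0.153), so letters were taken to pair AMO1 libraries only.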

Additional observations from a re-analysis of the deposited data

Results flagged for a closer look

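The change with NEAT1 differed between lines for 8 of the long genes, by the test of the difference itself in the edgeR fit of all 18 libraries, and each is listed for that reason. Every one of these differences involves the same 6 LP1 libraries. AMO1 minus LP1 was 0.69 for TENM3 (adjusted p = 4.10e-07, edgeR), 0.50 for LRBA (4.39e-05, edgeR) and 0.45 for ROBO1 (7.84e-04, edgeR), receptors and a vesicle factor that were well expressed in both lines. It was 1.03 for PLCL1 (0.023, edgeR), 0.27 for PALM2AKAP2 (0.034, edgeR) and -1.73 for SHANK2 (0.020, edgeR), the last with a mean of 0.295 CPM in AMO1. H929 minus LP1 was 0.55 for TENM3 (9.27e-06, edgeR), 0.52 for LRBA (2.43e-05, edgeR) and 0.55 for ROBO1 (2.55e-05, edgeR). For CDKAL1 it was 0.43 (0.0061, edgeR) and for ZFHX3 0.48 (0.040, edgeR). TENM3 stood at a mean of 282 CPM in LP1 against 13.8 in AMO1 and 21.6 in H929, and ROBO1 at 96.2 against 40.2 and 44. The part of these levels in the differences was not tested. With groups of 3 libraries, Dixon's test for a library far from the others was not run.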

How the results depend on the processing

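Of 366 refits of a called member with 1 library left out 280 kept the call, as did 563 of 652 refits of called members and differences under other settings, and none changed sign. Settings that moved a count by over 1.5 times, or a median by over the spread between libraries, were these, and the cause was not tested. With the replicate block 1 member was lower in AMO1 and 1 in H929 (H929 and LP1 letters were not taken to pair, and the block changed the other counts by less). After removal of the trend with span, H929 gave 15 higher and 11 lower, AMO1 3 lower and LP1 3 higher, with medians of -0.022 (AMO1), 0.012 (H929) and 0.019 (LP1). With the replicate block as well, the counts were 8 lower in AMO1, 14 higher and 9 lower in H929 and 0 higher in LP1, with medians of -0.0187, 0.0083 and 0.018. The joint fit called 1 lower in AMO1 and 0 lower in H929. Library size alone gave 4 lower in H929, a median of 0.118 there, and 3 differences between H929 and LP1. limma-voom called 1 lower in H929, DESeq2 10 higher in LP1 and the fit without a filter 10 higher in LP1. With the threshold at 0.1 and a change of at least 1.5-fold, 10 were higher and 1 lower in AMO1, 12 higher in H929, and 3 higher and 0 lower in LP1. Shares of all tested genes are given above for the AMO1 block and for trend removal without the block. For the other settings, here and in the paragraphs that follow, no such share is given. Those counts show only how the numbers of called members moved.

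Lists with another span or level held other numbers of genes. A span over 500 kb gave 29 higher in AMO1, 47 higher in H929 (median 0.142) and 6 lower in LP1. A span over 800 kb gave 11 higher in AMO1, 17 higher and 1 lower in H929 (median 0.213), and 2 higher and 1 lower in LP1. A mean of at least 2 CPM left 1 lower in H929. Further choices were made after the data had been seen. With the 8 genes left out by name, the H929 median was 0.229 and 13 were higher in LP1, and at 5 CPM or more in the line H929 had 0 lower and a median of 0.1215.

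With 1 library left out, 15 to 19 were higher and 0 lower in AMO1 (median 0.132 to 0.187), 24 to 26 higher and 0 to 2 lower in H929 (0.126 to 0.191), and 1 to 10 higher and 0 to 3 lower in LP1 (0.0692 to 0.140). The difference of medians between members with and without the NEAT1 run was 0.253 in AMO1, 0.163 in H929 and 0.0483 in LP1 at 12 bases. At 11 bases it was 0.0469, 0.0177 and -0.042, and at 13 bases 0.334, 0.254 and 0.229. The values at 13 bases rest on 8 members, of which PTPRD and GRIP1 had few reads in AMO1 and PCAT1 few in LP1. With the segment extended by 3 bases on each side, also added later, it was 0.149 in AMO1 and 0.141 in H929.

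Low reads limit members under 1 CPM in a line, whose log2 fold changes have the largest errors.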
